A study of Mus musculus with 10 samples.

Results

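The genes that copy the mouse genome in S phase were followed across brain tumours and neurosphere cultures in which the floxed tumour suppressors p53 and Rb could be deleted by Cre. The set was given as a list of 41 gene symbols, from the loading of the replicative helicase to the supply of nucleotides. A gene was taken as measured where a transcript cluster of the array carried its symbol alone, which held for 38 of the 41. Pcna, Rrm2 and Lig1 were not analysed here. No measured member had more than 1 transcript cluster, and the 38 stand among 23238 transcript clusters on the array, 14939 of which carry the name of 1 gene.

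Each of 10 samples was hybridised to an exon array, and a value is the log2 expression of 1 transcript cluster in 1 sample. All donors of tissue and cells shared the genotype p53/Rb Flox-Hom on a mixed background of C57, FVB and mainly 129 Ola. The groups were 3 primitive neuroectodermal tumours (PNET) raised by intra-cranioventricular AdCre, an adenovirus that expresses Cre, and 1 oligo-astrocytoma raised in the same way (the AdCre-induced oligo-astrocytoma, replicate 44). A further 3 oligo-astrocytomas, replicates 4, 5 and 6, grew from spheres that were transduced with AdCre in vitro and then grafted. Cultures were 2 AdCre spheres and 1 AdGFP sphere at passage 3, and the AdGFP sphere received the same floxed alleles with a virus that carries no Cre. All PNETs came from injection and 3 of 4 oligo-astrocytomas from grafts, so tumour type and derivation can be told apart only through the single AdCre-induced oligo-astrocytoma. The labels name no cell-type-specific driver of Cre, no host of the grafts and no ages, and they do not say whether samples came from separate animals or cultures. The p-values thus rest on how far these samples differ within a group, which may be technical variation.

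Replication starts at origins that are licensed in G1, when the origin recognition complex, Cdc6 and Cdt1 load the Mcm2 to Mcm7 helicase onto DNA. In S phase the cyclin E and Cdc7 kinases, with Cdc45, the GINS complex and Mcm10, turn the loaded helicase into a moving fork, where primase and the alpha, delta and epsilon polymerases copy both strands. Rb restrains E2F transcription factors, and many of these genes are known E2F targets. Cells that have lost Rb are known for raised expression of such genes, which in brain is otherwise a property of dividing progenitors.

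Promoter sequences were examined because E2F is the step at which Rb acts on these genes. RefSeq windows on GRCm38.p6, from 250 bases before to 50 bases after the start of transcription, were matched by symbol for 32 of the 38 members. E2F words were searched on both strands, namely TTTCCCGC, TTTGGCGC, TTTCGCGC and TTTGCCGC. Matches on opposite strands can overlap, and a gene was counted once. At least 1 word was found for 13 of 32 members (40.6%), against 3.76% of the 11855 genes that are named on the array and have a window. Counted by window, a word was found in 13 of 37 member windows (35.1%), against 2.26% of all 32851 promoter windows. The words were found in 7 of 8 licensing genes with a window, all but Mcm2, in 1 of 6 genes of origin firing (Gins3), in 2 of 4 polymerase and primase genes (Pola1 and Pold1), in 2 of 6 genes of the clamp, loader and fork class (Rfc3 and Clspn) and in 1 of 2 recombination genes (Mcm8). None of the 3 nucleotide genes and none of the 3 chromatin genes held a word in its window. A match is a description of the letters and not of a bound site.

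Shown here are 6 windows of genes whose levels separate the groups in the results that follow, 5 with a match and that of Slbp without one, each 5′ to 3′ on the strand of its gene, with the matched words in capitals. Cdc6 lies at chr11:98907901-98908200, plus strand. Cdt1 lies at chr8:122567765-122568064, plus strand. Mcm8 lies at chr2:132815891-132816190, plus strand. Pola1 lies at chrX:93632106-93632405, minus strand. Pold1 lies at chr7:44548766-44549065, minus strand. Slbp lies at chr5:33652525-33652824, minus strand.
Cdc6: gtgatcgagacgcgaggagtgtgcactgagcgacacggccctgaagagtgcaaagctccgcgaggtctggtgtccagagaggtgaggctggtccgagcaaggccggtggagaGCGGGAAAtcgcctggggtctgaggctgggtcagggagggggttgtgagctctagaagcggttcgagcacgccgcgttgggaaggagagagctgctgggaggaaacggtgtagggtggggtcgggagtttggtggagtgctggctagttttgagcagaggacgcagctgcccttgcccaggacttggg
Cdt1: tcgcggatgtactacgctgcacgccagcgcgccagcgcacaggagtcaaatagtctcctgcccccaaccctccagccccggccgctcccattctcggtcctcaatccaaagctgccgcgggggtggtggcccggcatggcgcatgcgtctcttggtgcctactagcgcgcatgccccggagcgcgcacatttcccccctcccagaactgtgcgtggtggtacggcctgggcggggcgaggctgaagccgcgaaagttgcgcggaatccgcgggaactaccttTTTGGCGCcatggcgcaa
Mcm8: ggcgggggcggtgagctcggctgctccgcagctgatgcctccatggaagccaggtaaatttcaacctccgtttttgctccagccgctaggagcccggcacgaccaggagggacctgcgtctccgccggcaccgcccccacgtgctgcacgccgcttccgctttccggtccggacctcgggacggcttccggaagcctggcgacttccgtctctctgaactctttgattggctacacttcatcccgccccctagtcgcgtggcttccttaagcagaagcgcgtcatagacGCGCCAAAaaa
Pola1: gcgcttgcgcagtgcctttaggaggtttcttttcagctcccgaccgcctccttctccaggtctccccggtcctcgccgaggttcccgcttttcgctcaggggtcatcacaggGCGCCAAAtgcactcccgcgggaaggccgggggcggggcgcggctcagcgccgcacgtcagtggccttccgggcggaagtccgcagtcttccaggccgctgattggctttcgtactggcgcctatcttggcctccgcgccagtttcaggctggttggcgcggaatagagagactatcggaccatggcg
Pold1: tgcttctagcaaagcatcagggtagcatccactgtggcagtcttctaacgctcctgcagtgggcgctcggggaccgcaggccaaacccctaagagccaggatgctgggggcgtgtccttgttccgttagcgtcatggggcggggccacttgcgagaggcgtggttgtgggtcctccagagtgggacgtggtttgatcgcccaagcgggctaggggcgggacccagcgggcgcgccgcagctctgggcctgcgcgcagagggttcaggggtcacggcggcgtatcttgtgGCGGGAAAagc
Slbp: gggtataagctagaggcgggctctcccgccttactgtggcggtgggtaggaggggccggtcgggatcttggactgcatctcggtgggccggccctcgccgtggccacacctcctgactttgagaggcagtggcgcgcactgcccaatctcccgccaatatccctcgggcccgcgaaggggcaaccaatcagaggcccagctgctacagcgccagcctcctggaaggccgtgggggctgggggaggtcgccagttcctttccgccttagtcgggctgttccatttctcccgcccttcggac

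The targeted gene was examined first. Rb1 stood at 7.48, 7.48 and 7.64 in the PNETs, 6.97 in the AdCre-induced oligo-astrocytoma, 6.36, 7.24 and 6.63 in the grafts, 6.65 and 6.34 in the AdCre spheres and 8.48 in the AdGFP sphere, the highest of the 10 samples. Where the probes of its transcript cluster lie relative to the floxed part was not examined, so a remaining signal does not show an intact allele. The p53 gene was not analysed here. Array medians lay between 5.87 and 6.06, and upper quartiles lay between 7.22 and 7.49 in the tumours and between 7.90 and 8.0 in the spheres, so the spheres' values were more widely spread. For this reason the members' tumour and sphere differences are given as deposited and, for the genes that passed, also after quantile normalization. Marker genes set the samples apart by label: the mean of 5 oligodendrocyte precursor markers was 5.82 to 5.89 in PNETs, 9.39 to 9.74 in oligo-astrocytomas and 8.36 to 8.95 in spheres, and that of 4 photoreceptor and pineal markers was 10.24 to 11.07, 4.17 to 4.38 and 4.41 to 5.00 in the same order. The mean of 4 neural stem markers was 10.46 to 10.74 in the spheres, 8.92 to 9.27 in oligo-astrocytomas and 6.38 to 6.74 in PNETs. Of the 5 oligodendrocyte precursor markers, Sox10 and Pdgfra had higher means in oligo-astrocytomas than in AdCre spheres. The means of Olig1, Olig2 and Cspg4 were lower in oligo-astrocytomas than in AdCre spheres.

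Replication genes most often had their highest group mean in PNET and their lowest in one of the oligo-astrocytoma groups. Of the 38 members, 25 had their highest group mean in PNET, 9 in the AdCre spheres, 3 in the AdGFP sphere, 1 in the grafts and 0 in the AdCre-induced oligo-astrocytoma, when the 5 groups are kept separate. The lowest group mean fell in the grafts for 16 members and in the AdCre-induced oligo-astrocytoma for 13. These orders were not counted over all transcript clusters, so no share stands beside them. When each gene was set to its own mean over the 10 arrays and the 38 were averaged, PNET replicates 1, 2 and 3 stood at 0.35, 0.14 and 0.57, the AdCre-induced oligo-astrocytoma at -0.36 and grafts 4, 5 and 6 at -0.37, -0.13 and -0.51. The AdCre spheres stood at -0.06 and 0.35 and the AdGFP sphere at 0.01. Every PNET was above every oligo-astrocytoma on this mean. The sphere replicates lay on either side of PNET replicate 2, and AdCre sphere 2 was level with PNET replicate 1.

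**Figure D1:**
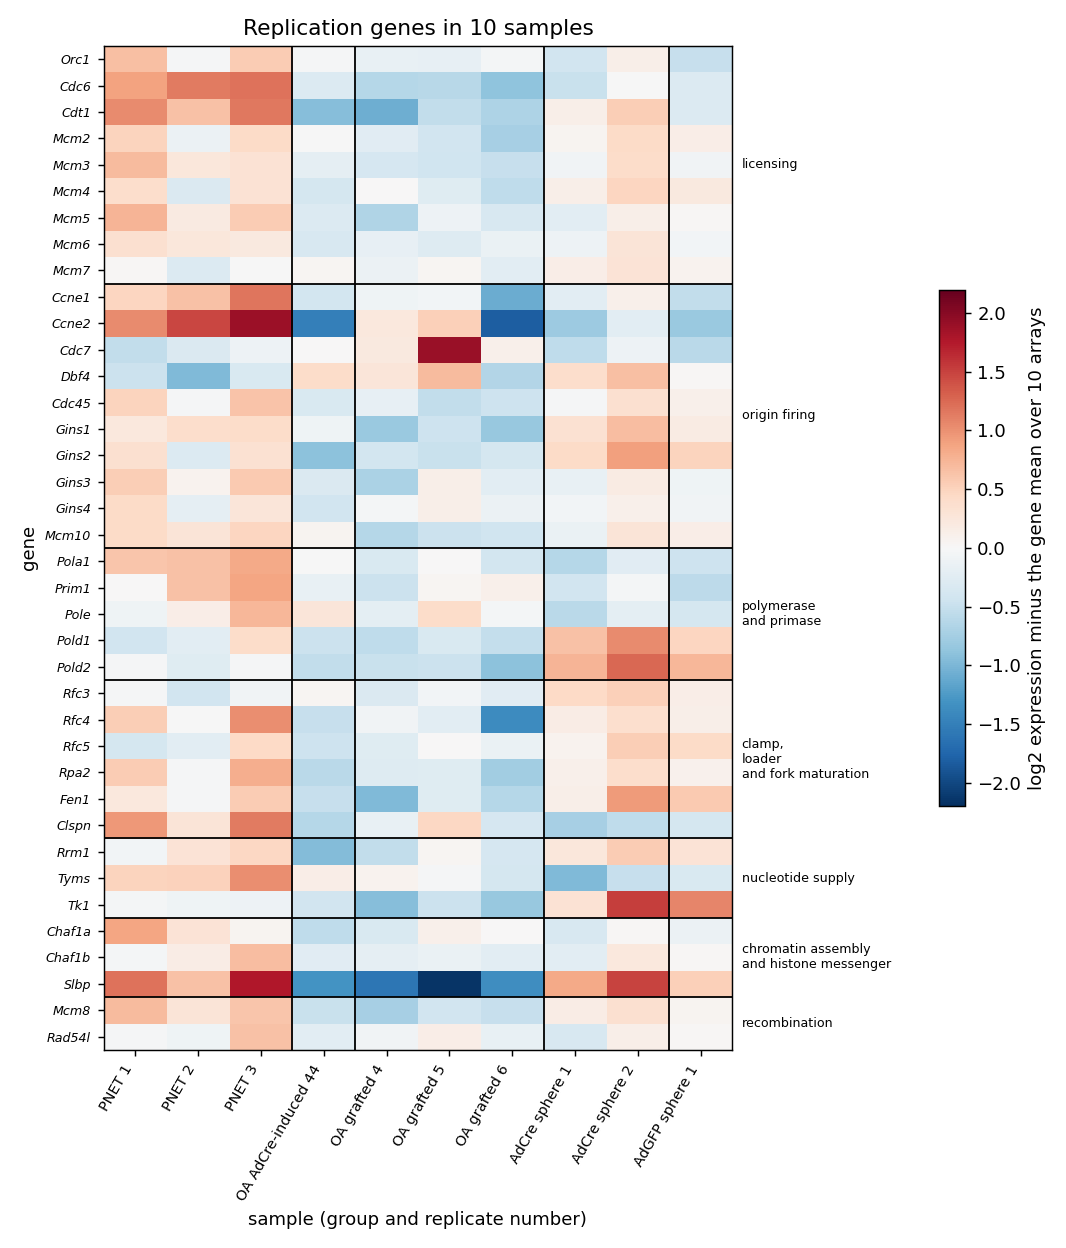
Log2 expression of 38 replication genes (rows, in role classes) in 10 samples (columns), each gene shown as its difference from its own mean over the 10 arrays, red for higher and blue for lower. PNET columns are mostly red and oligo-astrocytoma columns mostly blue, and the spheres are reddest for Pold1, Pold2, Tk1 and Slbp.

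The first comparison asked how replication genes differ between the 2 tumour types. In PNETs 13 of the 38 members were higher than in the 4 oligo-astrocytomas and 0 were lower, where 5.53% of all transcript clusters were higher and 7.2% lower (12.7% in either direction, limma, adjusted p under 0.05). Among transcript clusters that carry the name of 1 gene, 7.08% were higher and 9.26% lower. The median difference over the 38 was 0.67 on the log2 scale, against -0.02 over all transcript clusters, and 34 of 38 differences were above 0. The 3 PNETs did not overlap the 4 oligo-astrocytomas and were higher for 22 members, a relation found for 10.6% of all transcript clusters. Fewer dividing cells in a tumour and less of each RNA per cell cannot be told apart in bulk tissue. Calls by class were 4 of 9 for licensing, 5 of 10 for origin firing, 1 of 5 for polymerase and primase, 1 of 6 for the clamp, loader and fork class, 0 of 3 for nucleotide supply, 1 of 3 for chromatin assembly and histone messenger, and 1 of 2 for recombination.

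Among licensing genes Cdc6 and Cdt1 differed most. Cdc6, the ATPase that brings the helicase to the origin, stood at 7.39, 7.65 and 7.69 in PNETs 1 to 3, 6.19 for the AdCre-induced oligo-astrocytoma, and 5.87, 5.89 and 5.62 across grafts 4 to 6. Every PNET exceeded every oligo-astrocytoma by more than the spread within either group, and the difference was 1.68 ± 0.19 (adjusted p = 0.000676), or 3.21-fold. Cdt1, which escorts the helicase to the origin with Cdc6, stood at 9.48, 9.08 and 9.60 in PNETs 1 to 3, 7.49 for the AdCre-induced oligo-astrocytoma, and 7.37, 7.90 and 7.76 across grafts 4 to 6. These groups did not overlap either, and the difference was 1.76 ± 0.20 (adjusted p = 0.000725), or 3.38-fold. Both carry an E2F word in the windows printed above.

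The helicase subunits themselves differed by less. Mcm5 was higher by 0.85 ± 0.20 (adjusted p = 0.0232) and Mcm3 by 0.79 ± 0.18 (adjusted p = 0.0216). Mcm6 has the highest mean level of the licensing genes and stood at 9.62, 9.52 and 9.47 in PNETs 1 to 3, 8.91 for the AdCre-induced oligo-astrocytoma, and 9.09, 8.98 and 9.13 across grafts 4 to 6, and at 9.16 and 9.56 in the AdCre spheres and 9.20 in the AdGFP sphere. Its PNET values lay above all oligo-astrocytoma values, but the difference of 0.51 ± 0.15 (adjusted p = 0.0612) did not pass. Mcm7, another subunit of the same ring, showed no such separation, with a difference of -0.02 ± 0.16 (adjusted p = 0.953) and overlapping groups, and 0.06 after quantile normalization. Mcm2 and Mcm4 gave 0.61 ± 0.23 (adjusted p = 0.120) and 0.43 ± 0.22 (adjusted p = 0.277), and Orc1, the subunit of the origin recognition complex that varies with the cell cycle, gave 0.50 ± 0.21 (adjusted p = 0.167).

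Origin firing held the most calls of any class, and also both members that pointed furthest the other way. Ccne2, which encodes cyclin E2, a partner of Cdk2 at the start of S phase, stood at 8.78, 9.20 and 9.62 in PNETs 1 to 3, 6.23 for the AdCre-induced oligo-astrocytoma, and 7.96, 8.25 and 5.92 across grafts 4 to 6. All PNETs were above all oligo-astrocytomas, which themselves spread over more than 4-fold between grafts 5 and 6, and the difference was 2.11 ± 0.56 (adjusted p = 0.0387). Its paralog Ccne1 was higher by 1.18 ± 0.28 (adjusted p = 0.0257), the GINS subunit Gins1 by 0.89 ± 0.21 (adjusted p = 0.0233), Mcm10 by 0.76 ± 0.20 (adjusted p = 0.0340) and Cdc45, which joins GINS and the helicase at the fork, by 0.74 ± 0.20 (adjusted p = 0.0405). The remaining GINS genes did not pass, with 0.67 ± 0.23 (adjusted p = 0.0934) for Gins2, 0.68 ± 0.23 (adjusted p = 0.0868) for Gins3 and 0.28 ± 0.20 (adjusted p = 0.456) for Gins4. Gins4 has the highest mean level of the class and stood at 8.65, 8.03 and 8.49 in PNETs 1 to 3, 7.80 for the AdCre-induced oligo-astrocytoma, and 8.18, 8.35 and 8.10 across grafts 4 to 6, and at 8.17 and 8.33 in the AdCre spheres and 8.15 in the AdGFP sphere. The tumour types overlapped.

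Both genes of the Cdc7 kinase, which fires origins, had negative differences, unlike the rest of the class, but neither passed with all samples included. Cdc7, its catalytic subunit, stood at 7.45, 7.66 and 7.88 in PNETs 1 to 3, 8.0 for the AdCre-induced oligo-astrocytoma, and 8.20, 9.89 and 8.09 across grafts 4 to 6, and at 7.43 and 7.87 in the AdCre spheres and 7.39 in the AdGFP sphere. Every PNET was below every oligo-astrocytoma, a relation found for 12.8% of all transcript clusters, but graft 5 stood far above the other oligo-astrocytomas and the difference of -0.88 ± 0.43 (adjusted p = 0.240) did not pass. Its activator Dbf4 stood at 7.39, 6.90 and 7.55 in PNETs 1 to 3, 8.29 for the AdCre-induced oligo-astrocytoma, and 8.13, 8.57 and 7.22 across grafts 4 to 6. Graft 6 fell among the PNETs while the other oligo-astrocytomas lay above them, with a difference of -0.77 ± 0.31 (adjusted p = 0.153), and without graft 6 Dbf4 was lower in PNETs by limma at -1.05 (adjusted p = 0.0214).

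**Figure D2:**
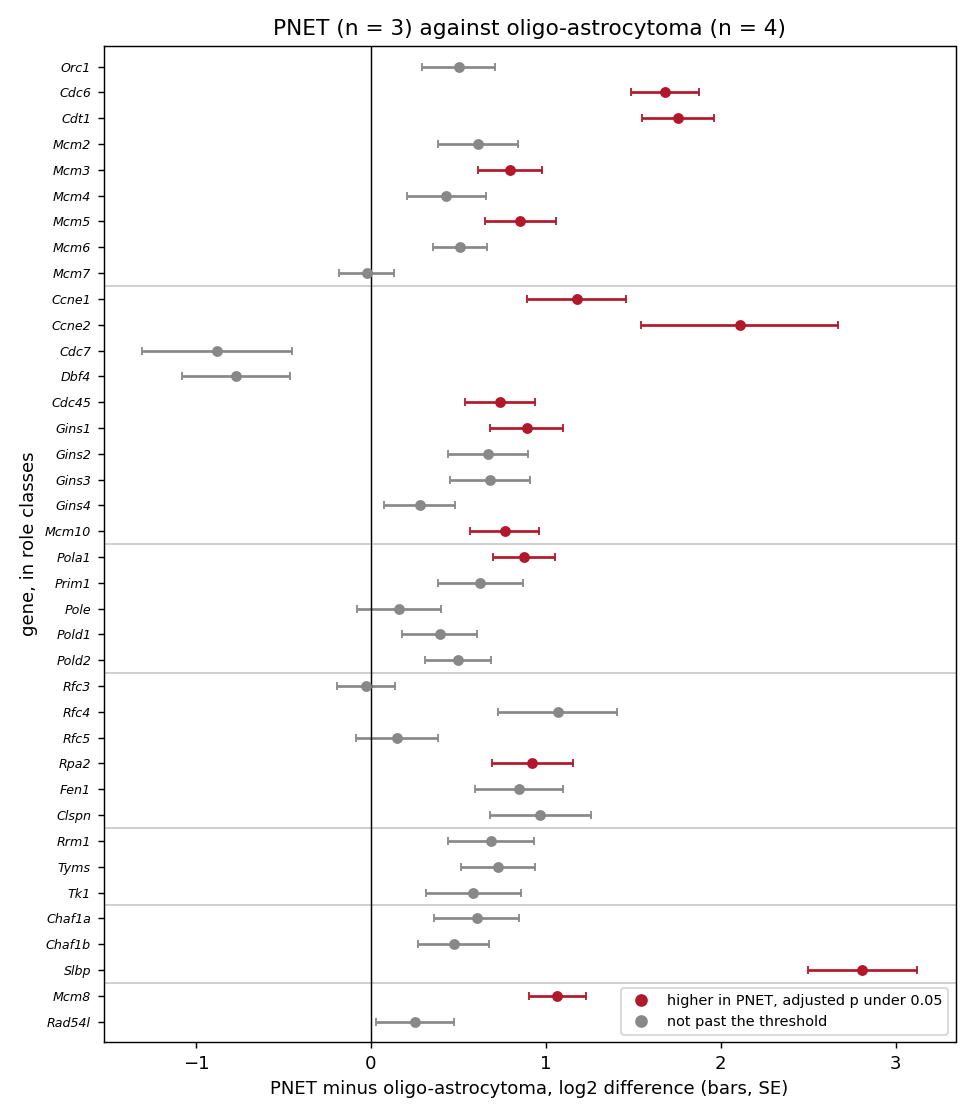
Difference of PNET (n = 3) minus oligo-astrocytoma (n = 4) in log2 expression for 38 replication genes in role classes, with bars for the standard error of the fit and colour for genes past an adjusted p of 0.05. The 13 coloured genes all lie to the right of 0, with Slbp at 2.81 furthest, while Cdc7 and Dbf4 lie furthest to the left and are not coloured.

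At the fork, Pola1 was the polymerase gene that passed. Pola1, the catalytic subunit of the polymerase that extends primers, stood at 8.29, 8.34 and 8.52 in PNETs 1 to 3, 7.68 for the AdCre-induced oligo-astrocytoma, and 7.35, 7.70 and 7.29 across grafts 4 to 6. All PNETs were above all oligo-astrocytomas, and the difference was 0.88 ± 0.18 (adjusted p = 0.0114). Prim1, its primase partner and the polymerase-class member with the highest mean level, stood at 8.97, 9.61 and 9.84 in PNETs 1 to 3, 8.81 for the AdCre-induced oligo-astrocytoma, and 8.50, 9.01 and 9.07 across grafts 4 to 6, and at 8.54 and 8.92 in the AdCre spheres and 8.39 in the AdGFP sphere. PNET replicate 1 lay below graft replicates 5 and 6, and the difference of 0.62 ± 0.24 (adjusted p = 0.137) did not pass. The leading-strand polymerase gene Pole gave 0.16 ± 0.24 (adjusted p = 0.757) and the delta polymerase genes Pold1 and Pold2 gave 0.39 ± 0.21 (adjusted p = 0.301) and 0.50 ± 0.19 (adjusted p = 0.126).

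In the clamp, loader and fork class, Rpa2 passed as deposited. Rpa2, a subunit of the protein that coats single-stranded DNA, has the highest mean level of the class and stood at 9.21, 8.62 and 9.45 in PNETs 1 to 3, 8.06 for the AdCre-induced oligo-astrocytoma, and 8.37, 8.38 and 7.88 across grafts 4 to 6, and at 8.77 and 9.04 in the AdCre spheres and 8.75 in the AdGFP sphere. PNETs lay above oligo-astrocytomas without overlap, by 0.92 ± 0.23 (adjusted p = 0.0299). The clamp loader genes were uneven, with 1.07 ± 0.34 (adjusted p = 0.0749) for Rfc4, 0.15 ± 0.23 (adjusted p = 0.767) for Rfc5 and -0.03 ± 0.17 (adjusted p = 0.946) for Rfc3, and none of these passed as deposited. Fen1, the nuclease that trims Okazaki fragments, gave 0.85 ± 0.25 (adjusted p = 0.0588) and Clspn, which links the fork to the checkpoint, gave 0.97 ± 0.29 (adjusted p = 0.0588). After quantile normalization 4 of the 6 passed, with Rfc4 at 1.17 (adjusted p = 0.0396), Fen1 at 0.97 (adjusted p = 0.0259) and Clspn at 1.15 (adjusted p = 0.0290) beside Rpa2, and after median centring 3 passed.

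As deposited, none of the 3 nucleotide genes passed between the tumour types. Rrm1, the large subunit of ribonucleotide reductase, has the highest mean level of the class and stood at 10.20, 10.55 and 10.71 in PNETs 1 to 3, 9.29 for the AdCre-induced oligo-astrocytoma, and 9.71, 10.30 and 9.89 across grafts 4 to 6, and at 10.51 and 10.82 in the AdCre spheres and 10.55 in the AdGFP sphere. Graft 5 reached above PNET replicate 1, so the groups overlapped, and the difference was 0.69 ± 0.25 (adjusted p = 0.110). Tyms, which makes thymidylate, gave 0.73 ± 0.21 (adjusted p = 0.0549) and Tk1, which salvages thymidine, gave 0.59 ± 0.27 (adjusted p = 0.219), in both cases with every PNET above every oligo-astrocytoma. Tyms passed after quantile normalization, at 0.85 (adjusted p = 0.0237). The median difference was 0.61 for licensing, 0.71 for origin firing, 0.50 for polymerases and 0.69 for nucleotide supply.

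Slbp had the largest difference of all members. It encodes the protein that binds the stem-loop of replication-dependent histone messengers and stood at 5.82, 5.29 and 6.40 in PNETs 1 to 3, 3.32 for the AdCre-induced oligo-astrocytoma, and 3.04, 2.49 and 3.27 across grafts 4 to 6. The groups were far apart, with a difference of 2.81 ± 0.31 (adjusted p = 0.000535), or 7.01-fold. All oligo-astrocytoma values lay below the lower quartile of their arrays (4.22 to 4.44 over the 10 arrays), where background limits the size that a fold can show. The chromatin assembly subunits Chaf1a and Chaf1b, which place histones behind the fork, gave 0.60 ± 0.24 (adjusted p = 0.153) and 0.47 ± 0.20 (adjusted p = 0.176). Chaf1b has the highest mean level of its class and stood at 8.08, 8.29 and 8.80 in PNETs 1 to 3, 7.87 for the AdCre-induced oligo-astrocytoma, and 7.93, 7.98 and 7.88 across grafts 4 to 6, and at 7.89 and 8.36 in the AdCre spheres and 8.15 in the AdGFP sphere. Every PNET was above every oligo-astrocytoma.

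Of the recombination genes, Mcm8, a helicase that acts with Mcm9 in repair, stood at 6.83, 6.42 and 6.75 in PNETs 1 to 3, 5.65 for the AdCre-induced oligo-astrocytoma, and 5.41, 5.72 and 5.63 across grafts 4 to 6. PNETs and oligo-astrocytomas did not overlap, and the difference was 1.06 ± 0.16 (adjusted p = 0.00304). Rad54l, a motor protein of strand exchange and the member of higher mean level, stood at 7.87, 7.81 and 8.55 in PNETs 1 to 3, 7.68 for the AdCre-induced oligo-astrocytoma, and 7.83, 8.05 and 7.73 across grafts 4 to 6, and at 7.55 and 8.02 in the AdCre spheres and 7.94 in the AdGFP sphere. Graft 5 lay above PNET replicates 1 and 2, and the difference was 0.25 ± 0.22 (adjusted p = 0.556).

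Cdc6, Cdt1, Slbp and Mcm8 passed whichever single sample was left out, and the other 9 calls were lost without PNET replicate 3, at adjusted p from 0.0528 to 0.151 by limma. The count fell from 13 to 4 without PNET replicate 3, when 1772 of 23238 transcript clusters passed in place of 2960. It fell to 8 without PNET replicate 1 and to 8 (7 higher and 1 lower) without graft 6. With the AdCre-induced oligo-astrocytoma alone on the other side, both tumour types came from injection, but that side then held 1 sample. Mcm7, Cdc7, Dbf4 and Rfc3 stood there above every PNET, and Mcm2 and Pole lay among the PNETs. All other members lay below every PNET, with Cdc6, Cdt1, Slbp and Mcm8 at 6.19, 7.49, 3.32 and 5.65. How many of all transcript clusters lie below every PNET in that sample was not counted. Whether the members' excess over all transcript clusters holds in this matched contrast cannot be told from 1 sample. Quantile normalization raised the count to 21 higher and 0 lower, all 13 among them, against 7.19% of all transcript clusters higher and 6.67% lower. The 21 were 6 of licensing, 7 of origin firing, 1 polymerase gene, 4 of the clamp, loader and fork class, and 1 each of nucleotide supply, chromatin and recombination. Median centring gave 17 higher and 0 lower, against 6.62% and 6.45% of all transcript clusters. Of the 13 genes called as deposited, 11 have a promoter window and 6 of these hold an E2F word, against 7 of 21 among the other members.

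**Figure D3:**
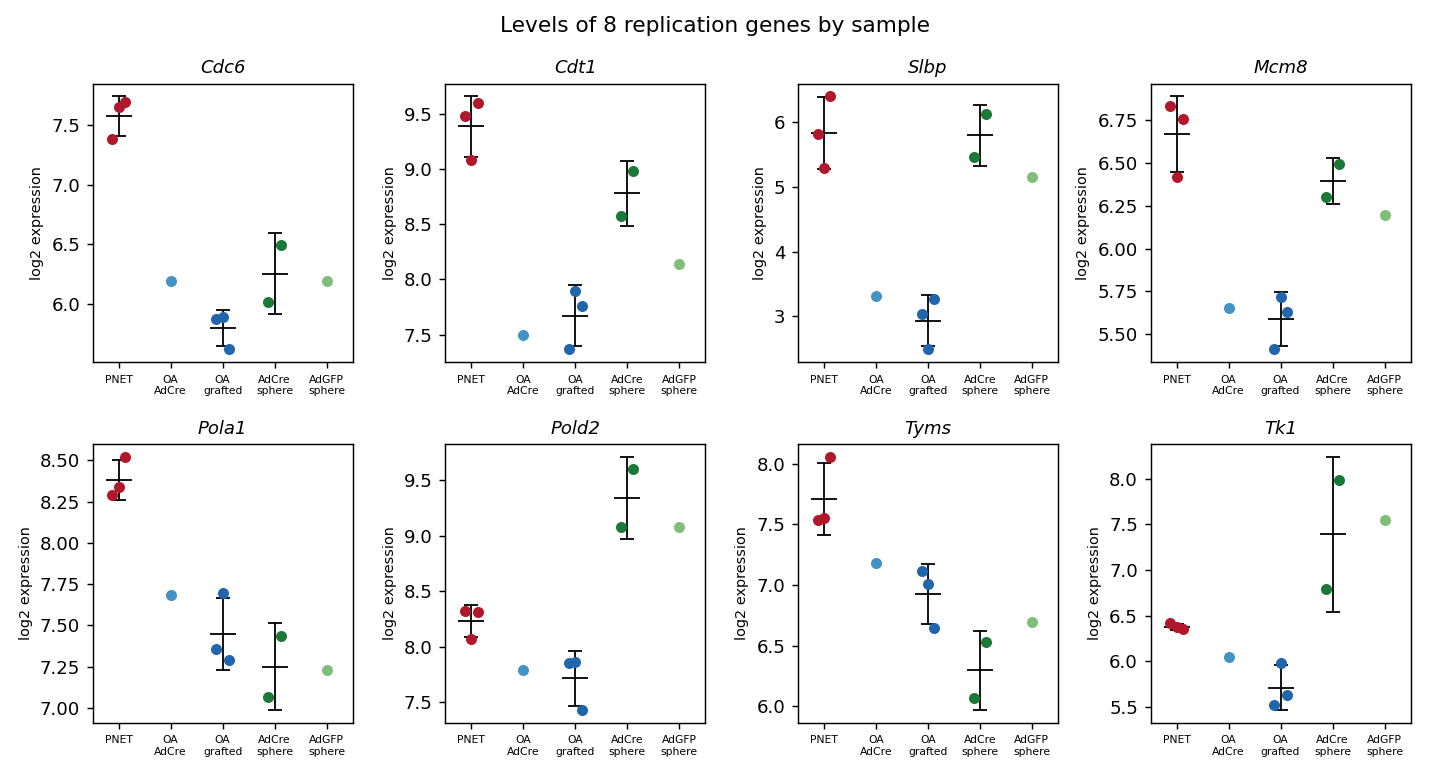
Log2 expression of Cdc6, Cdt1, Slbp, Mcm8, Pola1, Pold2, Tyms and Tk1 by group, with 1 point for a sample and bars for the mean ± SD of groups with more than 1 sample; OA stands for oligo-astrocytoma and axes do not start at 0. PNET points lie above all oligo-astrocytoma points in each of the 8 panels, while Pold2 and Tk1 are highest in the spheres.

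Related genes that are not members were read from lists. Among 41 measured other replication genes, 16 were higher in PNETs (39%, against 5.53% of all transcript clusters) and 0 lower, with a median difference of 0.34. Hells, a chromatin remodeller, led with 1.74 ± 0.23 (adjusted p = 0.00142), followed by Dna2, a nuclease of flap removal, with 1.46 ± 0.37 (adjusted p = 0.0315) and Asf1b, a histone chaperone, with 1.44 ± 0.24 (adjusted p = 0.00461). Among 22 measured regulators of Rb and E2F, 5 were higher and 2 lower (22.7% and 9.09%), with a median of 0.57. The inhibitor Cdkn1a was higher by 2.98 ± 0.43 (adjusted p = 0.00220), E2f1 by 1.85 ± 0.24 (adjusted p = 0.00142) and E2f6, a repressor of the family, by 1.53 ± 0.29 (adjusted p = 0.00839), while cyclin D1 (Ccnd1) was lower at -3.86 ± 0.94 (adjusted p = 0.0269) and Cdk4 at -0.90 ± 0.18 (adjusted p = 0.0126). Of 22 mitosis genes 3 were higher and 0 lower. That is 13.6% higher, against 5.53% of all transcript clusters higher and 12.7% called in either direction. In this list 21 of 22 differences were above 0, with a median of 0.55 beside 0.67 for the members. The mean of this list was 8.35 to 8.61 in PNETs and 7.55 to 8.47 in oligo-astrocytomas, with graft 5 at the top of the latter. Microglia and macrophage markers averaged 6.35 to 7.40 in PNETs and 7.01 to 8.90 in oligo-astrocytomas, and endothelial markers 6.02 to 6.51 and 6.25 to 7.01. All 8 microglial and 6 endothelial markers were measured, and the part of these cells in the differences was not tested.

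The second comparison set the 4 oligo-astrocytomas against the 2 AdCre spheres. The grafts also grew from AdCre spheres, but the labels do not link those to the cultures measured here. The AdCre-induced oligo-astrocytoma came from injection and not from spheres. As deposited, 0 members were higher in the tumours and 11 were lower, where 10.1% of all transcript clusters were higher and 22.8% lower (32.8% in either direction). The median difference was -0.40 over the members and -0.23 over all transcript clusters. Among the 14939 transcript clusters that carry the name of 1 gene, as all members do, 3.23% were higher and 28.2% lower. Their median difference was -0.35, and 28.9% of the members were lower, so the members lay close to named genes at large. After quantile normalization the median over all transcript clusters moved to -0.10 and that of the members to -0.01, and 3 members were higher and 5 lower, against 11.2% and 12.4% of transcript clusters. After median centring the members' median was -0.32 and that of all transcript clusters -0.15. In that setting 1 member was higher and 10 lower, against 11.3% and 19.7% of transcript clusters. The split of the members therefore moved with quantile normalization more than with centring, while Slbp, Pold2, Tk1 and Pold1 were lower in the tumours under every scaling and with any single sample left out.

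Slbp stood at 5.47 and 6.13 in the AdCre spheres and 5.16 in the AdGFP sphere, against 2.49 to 3.32 in the oligo-astrocytomas. No tumour of this type came near a sphere, and the difference was -2.77 ± 0.35 (adjusted p = 0.000876) as deposited and -2.77 after quantile normalization. The delta polymerase genes went the same way. Pold2, the small subunit that holds this polymerase together, stood at 8.32, 8.07 and 8.31 in PNETs 1 to 3, 7.80 for the AdCre-induced oligo-astrocytoma, and 7.85, 7.87 and 7.43 across grafts 4 to 6, and at 9.08 and 9.60 in the AdCre spheres and 9.08 in the AdGFP sphere. Spheres lay above all tumours, and the difference between oligo-astrocytomas and AdCre spheres was -1.61 ± 0.21 (adjusted p = 0.000970), or -1.08 after quantile normalization.

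Pold1, the catalytic subunit, stood at 7.59, 7.77 and 8.40 in PNETs 1 to 3, 7.53 for the AdCre-induced oligo-astrocytoma, and 7.44, 7.66 and 7.47 across grafts 4 to 6, and at 8.64 and 9.04 in the AdCre spheres and 8.47 in the AdGFP sphere. Here too all oligo-astrocytomas were below both AdCre spheres, at -1.32 ± 0.24 (adjusted p = 0.00396) as deposited and -0.78 after quantile normalization. Tk1 stood at 6.42, 6.37 and 6.35 in PNETs 1 to 3, 6.04 for the AdCre-induced oligo-astrocytoma, and 5.52, 5.99 and 5.63 across grafts 4 to 6, and at 6.79 and 7.99 in the AdCre spheres and 7.55 in the AdGFP sphere. The AdCre spheres differed from each other by more than 1 log2 unit, yet both were above every oligo-astrocytoma, and the difference was -1.60 ± 0.31 (adjusted p = 0.00487), or -1.29 after quantile normalization.

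The other polymerase and nucleotide genes differed in direction. Tyms stood at 7.53, 7.55 and 8.05 in PNETs 1 to 3, 7.18 for the AdCre-induced oligo-astrocytoma, and 7.12, 7.01 and 6.64 across grafts 4 to 6, and at 6.06 and 6.53 in the AdCre spheres and 6.69 in the AdGFP sphere. Every oligo-astrocytoma was above both AdCre spheres, and the difference of 0.69 ± 0.24 (adjusted p = 0.0526) missed the threshold as deposited and passed after quantile normalization at 0.92 (adjusted p = 0.0203). Pole and Pola1, at 0.51 ± 0.27 and 0.26 ± 0.20 as deposited without passing, also passed as higher in the tumours after quantile normalization, at 1.04 and 0.71. Rrm1 was lower at -0.86 ± 0.28 (adjusted p = 0.0413) as deposited and did not pass after quantile normalization, at -0.44.

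Licensing, firing, fork and recombination genes made up the rest of the 11 as deposited. These were Cdt1 at -1.15 ± 0.23, Gins2 at -1.20 ± 0.26, Gins1 at -1.06 ± 0.24, Fen1 at -1.13 ± 0.29, Mcm8 at -0.79 ± 0.19 and Rfc3 at -0.62 ± 0.19, of which Mcm8 passed after quantile normalization too, at -0.67. After the same step Gins2, Gins1, Fen1 and Rfc3 lay at -0.68, -0.66, -0.62 and -0.09 without passing. The MCM ring genes Mcm2 to Mcm7 lay between -0.60 and -0.29 and none passed, and after quantile normalization they lay between -0.09 and 0.23 with 3 of 6 above 0. Without AdCre sphere 2 the count fell from 11 to 4, and Cdt1, Gins1, Gins2, Rfc3, Fen1, Rrm1 and Mcm8 were lost.

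The third comparison set the 3 PNETs against the 2 AdCre spheres. As deposited, 5 members were higher in PNETs and 5 lower, where 11% of all transcript clusters were higher and 25.9% lower (37% in either direction). The median difference was 0.23 over the members and -0.21 over all transcript clusters. Among transcript clusters that carry the name of 1 gene, 5.50% were higher and 32.2% lower, with a median of -0.36. After quantile normalization the median over all transcript clusters moved to -0.07 and that of the members to 0.80. Then 21 members were higher and 0 lower, against 14.1% and 14.8% of transcript clusters. The 5 genes higher as deposited were among the 21, and none of the 5 lower genes passed in either direction. After median centring 10 were higher and 2, Pold1 and Pold2, lower, against 13.5% and 21.3% of transcript clusters. Cdc6, Pola1 and Tyms were higher in PNETs under every alternative tried, single samples left out included.

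Cdc6 stood at 6.01 and 6.49 in the AdCre spheres and 6.19 in the AdGFP sphere, all below the lowest PNET at 7.39, and was higher in PNETs by 1.32 ± 0.23 (adjusted p = 0.00234), or 1.67 after quantile normalization. Tyms was higher by 1.42 ± 0.25 (adjusted p = 0.00261), or 1.77 after quantile normalization, with every PNET above every sphere. Pola1 stood at 7.06 and 7.44 in the AdCre spheres and 7.23 in the AdGFP sphere, again all below the PNETs, with a difference of 1.13 ± 0.21 (adjusted p = 0.00312), or 1.69 after quantile normalization. Clspn stood at 7.04, 6.37 and 7.23 in PNETs 1 to 3, 5.47 for the AdCre-induced oligo-astrocytoma, and 5.92, 6.54 and 5.72 across grafts 4 to 6, and at 5.35 and 5.54 in the AdCre spheres and 5.71 in the AdGFP sphere. PNETs were above all spheres, and the difference of 1.44 ± 0.34 (adjusted p = 0.0105), or 1.58 after quantile normalization, was lost as deposited without AdCre sphere 1. Ccne2 stood at 6.93 and 7.49 in the AdCre spheres and 6.91 in the AdGFP sphere, below every PNET, with a difference of 1.99 ± 0.67 (adjusted p = 0.0438), or 2.52 after quantile normalization. As deposited it was lost without any single PNET or AdCre sphere.

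The 5 lower genes were Pold1, Pold2, Tk1, Dbf4 and Rfc3. Among other subunits of the same complexes, Pold4 of the delta polymerase was also lower, with a mean of 5.46 in PNETs and 8.56 in AdCre spheres. Pold3 of the delta polymerase did not pass, at 0.69 ± 0.40 (adjusted p = 0.206). Nor did Rfc4 and Rfc5 of the clamp loader, at 0.25 ± 0.41 (adjusted p = 0.665) and -0.38 ± 0.28 (adjusted p = 0.328). Pold2 was lower in PNETs, at -1.11 ± 0.22 (adjusted p = 0.00471) as deposited and at -0.48 (adjusted p = 0.117) after quantile normalization, and quantile normalization was the only alternative run in which it did not pass. Pold1 gave -0.92 ± 0.26 (adjusted p = 0.0200) and -0.29, and Tk1 gave -1.01 ± 0.33 (adjusted p = 0.0368) and -0.56, in the same order. Dbf4 stood at 8.26 and 8.53 in the AdCre spheres and 7.90 in the AdGFP sphere, above all PNETs, with -1.12 ± 0.37 (adjusted p = 0.0415) as deposited and -0.49 after quantile normalization. Rfc3, a clamp loader subunit, gave -0.65 ± 0.20 (adjusted p = 0.0284) and -0.02. Calls for Dbf4, Tk1, Rfc3 and Pold1 were lost without AdCre sphere 2, and the count then fell from 10 to 5. It fell to 6 without PNET replicate 2 and to 6 without AdCre sphere 1.

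**Figure D4:**
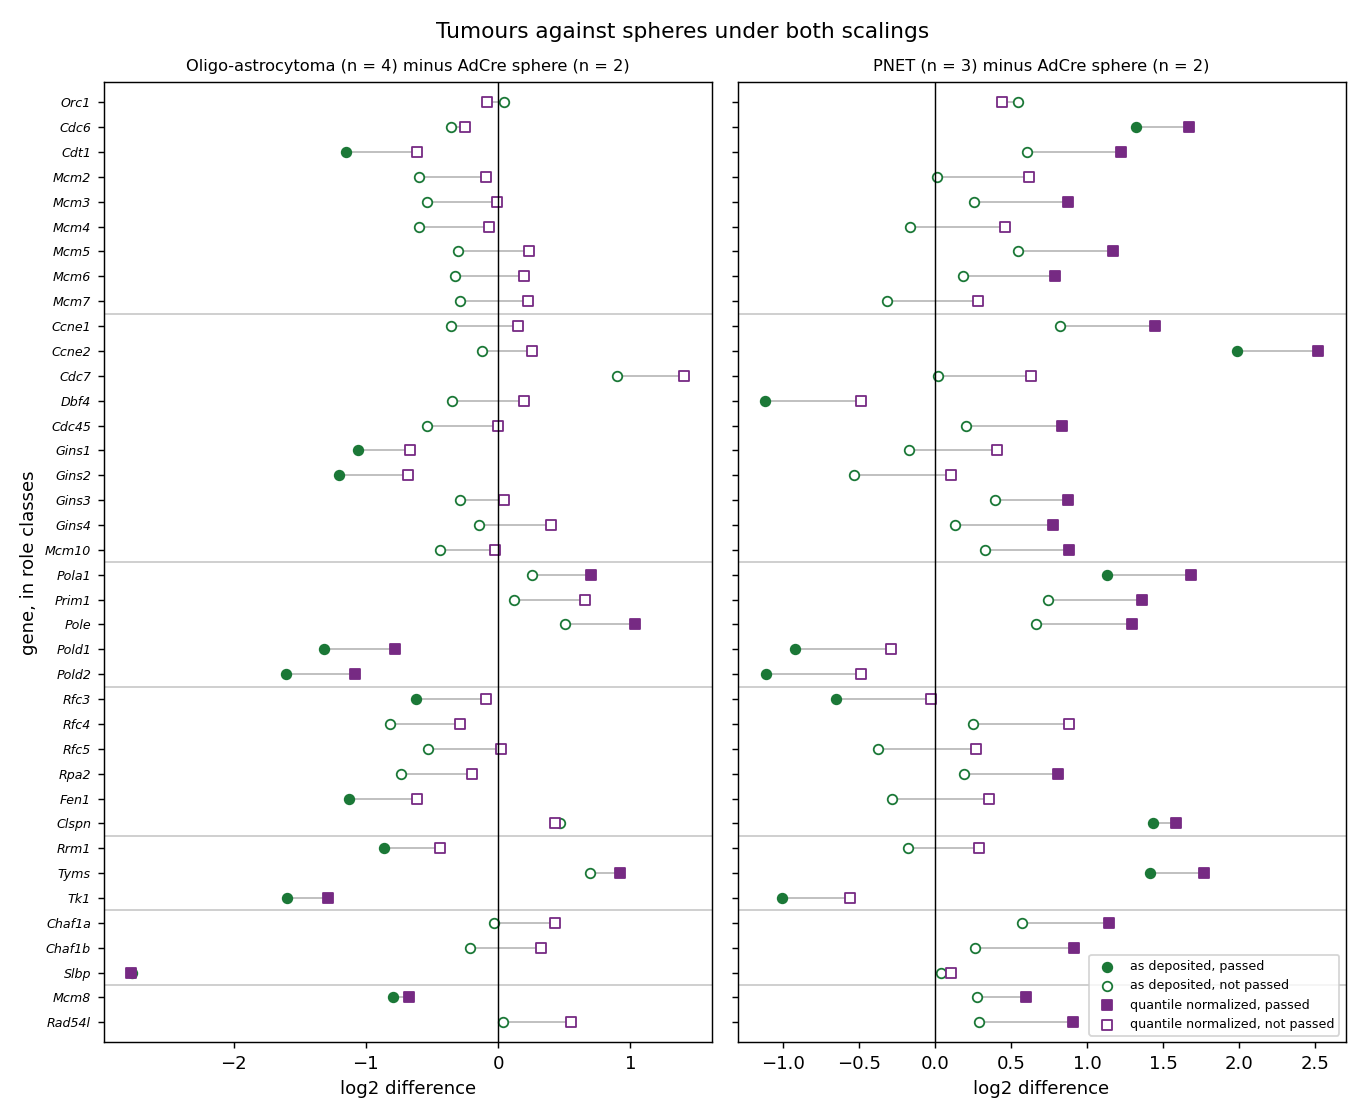
Log2 differences of oligo-astrocytoma (n = 4, left) and PNET (n = 3, right) minus the AdCre spheres (n = 2) for 38 replication genes, as deposited (circles) and after quantile normalization (squares), filled where the adjusted p is under 0.05. Most squares lie to the right of their circles, and on the left Slbp, Pold2, Tk1, Pold1 and Mcm8 stay filled below 0 under both scalings.

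The 2 tumour comparisons share the AdCre spheres, so their values are given side by side and not as independent results. Cdt1 stood at 8.57 and 8.98 in the AdCre spheres and 8.14 in the AdGFP sphere. As deposited it lay at -1.15 in oligo-astrocytomas, which passed, and at 0.61 in PNETs, which did not. After quantile normalization it lay at -0.62 (adjusted p = 0.0671) and 1.23 (adjusted p = 0.00447), so the contrast that passed changed with the scaling. Slbp lay at -2.77 and 0.04 as deposited and at -2.77 and 0.11 after quantile normalization. In the wider replication list 9 of 41 genes were lower in oligo-astrocytomas than in AdCre spheres (22%, against 22.8% of all transcript clusters) and 0 higher, with Pold4, the smallest delta subunit, at -2.86 ± 0.22 (adjusted p = 0.000222). In PNETs 7 were higher and 6 lower (17.1% and 14.6%, against 11% and 25.9%), with Pold4 at -3.10 ± 0.24 (adjusted p = 5.08e-05) and Dna2 at 1.54 ± 0.44 (adjusted p = 0.0230). After quantile normalization the list held 1 higher and 4 lower in oligo-astrocytomas (2.44% and 9.76%, against 11.2% and 12.4% of all transcript clusters). In PNETs it then held 19 higher and 2 lower (46.3% and 4.88%, against 14.1% and 14.8%). Regulators of Rb and E2F numbered 0 higher and 9 lower of 22 in oligo-astrocytomas (40.9% lower), and 2 higher and 7 lower in PNETs (9.09% and 31.8%). After quantile normalization they numbered 0 and 5 (22.7% lower, against 12.4% of all transcript clusters), and 5 and 2 (22.7% and 9.09%, against 14.1% and 14.8%). Mitosis genes numbered 0 higher and 5 lower of 22 (22.7% lower), and 1 higher and 2 lower (4.55% and 9.09%). Quantile normalization gave 0 and 1 (4.55% lower, against 12.4% of all transcript clusters), and 4 and 0 (18.2% higher, against 14.1%). Microglia and macrophage markers averaged 4.57 to 4.75 in the 3 spheres and endothelial markers 4.41 to 4.71, below every tumour, and their part in the differences was not tested.

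The fourth comparison asked how replication genes differ in culture with and without Cre, as the AdCre and AdGFP spheres differ by the virus they received. Of the 38 members, 0 passed, and 4 transcript clusters in all did (0.0172%) in the limma fit. At an unadjusted p under 0.05, 0 members and 1152 transcript clusters (4.96%) were called, and the lowest unadjusted p of a member was 0.0832. The largest differences were those of Slbp, at 0.64 ± 0.50, and Cdt1, at 0.64 ± 0.33, whose values by sample stand above. Standard errors ran from 0.25 to 0.90, so differences of the size seen between the tumour types in most members would not have been detectable here. Rb1 itself differed by -1.99 ± 0.35 (adjusted p = 0.247), and E2f1 by 0.59 ± 0.39 (adjusted p = 0.9997). The members' median difference was 0.12, against 0.07 over all transcript clusters, and it changed sign with the replicate left out, at 0.29 without AdCre sphere 1 and -0.04 without AdCre sphere 2.

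Within the spheres the replicates moved apart in 1 direction. AdCre sphere 2 was above AdCre sphere 1 for 38 of 38 members, as were 47.4% of all transcript clusters, with a median difference of 0.38 over the members and -0.02 over all. Against the AdGFP sphere, AdCre sphere 2 was higher for 36 of 38 members (56.9% of all transcript clusters) and AdCre sphere 1 for 17 of 38 (60.3%). A like spread ran within the PNETs, where replicate 3 was above replicate 2 for 35 of 38 members (57.9% of all transcript clusters). These are single samples set against each other, with no test.

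The fifth comparison set the single AdCre-induced oligo-astrocytoma against the 3 grafts. Of the 38 members, 0 passed, against 70 transcript clusters (0.301%), and 1 member, Gins1, had an unadjusted p under 0.05 (7.55% of all transcript clusters did), with a difference of 0.60 ± 0.26. Ccne2 and Cdc7 differed most, at -1.15 ± 0.80 (adjusted p = 0.881) and -0.73 ± 0.63 (adjusted p = 0.934). For Ccne2 the AdCre-induced tumour at 6.23 lay near graft 6 and below grafts 4 and 5, and for Cdc7 it lay below all grafts but near 4 and 6. The median difference over the members was 0.06. The AdCre-induced tumour was assumed to vary like the other groups, and 1 sample gives no spread of its own.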

How the data were processed

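RNA from 10 mouse samples was hybridised to 1-colour Affymetrix exon arrays. The deposited values are log2 expression, 1 per transcript cluster and sample, made by the authors with Partek and RMA on mm8, per the submitters' processing notes. The sources used here do not give tool versions, probe set filters or the array version of each sample. Values were used as deposited, with no pseudocount, filter or further scaling. Scanner intensities, and so signal over background, were not used here.

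Genes were named through GEO's platform annotation, which can be old: 14939 of 23238 transcript clusters carry 1 symbol, 989 several and 7310 none. Differences were tested in R 4.3.3 with limma 3.58.1, using lmFit and then eBayes on the 10 samples together, in 4 groups with both kinds of oligo-astrocytoma joined, or in 5 where these were compared. Every adjusted p in the text is limma's two-sided p, adjusted by Benjamini-Hochberg across the 23238 transcript clusters, with a threshold of 0.05. A value after ± is the standard error of the fit. A group of 1 sample was assumed to vary like the others. The model was tested on simulated data. Means of a gene list are means of log2 values, compared between samples only.

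The members, gene lists and tests were chosen with earlier results of these data known. Values in every sample are printed for Rb1, for the 4 largest rises and falls among members past the threshold in each comparison (the 2 largest differences where none passed) and for the member of highest mean level in each role class; other members were named with their differences. Replicate numbers are shared by PNETs and spheres. Differences between replicates 1 and 2 in PNETs and in AdCre spheres did not go together (Pearson r = -0.0489 over all transcript clusters, which are not independent). A single correlation cannot show whether samples with the same number share a donor or culture. AdCre sphere 1 and AdGFP sphere 1 were not examined in this way. The main fits used no pairing. Alternatives were quantile normalization, median centring, a minimum mean of 5, trend and robust moderation, other groupings, the replicate block and each sample left out.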

Additional observations from a re-analysis of the deposited data

Results flagged for a closer look

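In the 4 oligo-astrocytomas, graft 5 stood apart for Cdc7, the kinase that fires origins, at 9.89 on the log2 scale against 8.0 to 8.2 in the other 3. Its gap to the nearest sample took a share of 0.897 of the range. Graft 6 stood apart for Pold2, a delta polymerase subunit, at 7.43 against 7.80 to 7.87, with a share of 0.836. A single sample far from the rest was found in this way for 2 of 38 members and for 1305 of 23238 transcript clusters (5.62%), and chance gives about 1 in 20.

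Cdt1, which loads the helicase, lay above both AdCre spheres in all 3 PNETs and below both in all 4 oligo-astrocytomas, in the values as deposited. The difference between the tumour types was 1.76 (limma, adjusted p = 0.000725). As both tumour types were set against the same spheres, this is also the test of the difference between their 2 contrasts. The rule that flagged Cdt1 already required the tumour types to lie apart, so this p-value is no further support for the pattern. How many of all transcript clusters meet the rule was not counted.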

How the results depend on the processing

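For PNET against oligo-astrocytoma the count of members past the threshold was 13 as reported, 21 after quantile normalization, 3 with the AdCre-induced oligo-astrocytoma alone, and from 4 to 13 with 1 sample left out. For oligo-astrocytoma against AdCre spheres it was 11, and from 4 to 11 with 1 sample left out. For PNET against AdCre spheres it was 10, then 21 after quantile normalization, and from 5 to 11 with 1 sample left out. It was 0 throughout for AdCre against AdGFP spheres and for AdCre-induced against grafted oligo-astrocytoma. With the replicate block the counts were 13, 11, 10, 0 and 0, as without it, so the block changed no count. No difference among the genes that passed changed direction. Of 130 values for the 13 genes of the first comparison with 1 sample left out, 39 no longer passed, as did 16 of 110 in the second and 22 of 100 in the third.

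Over all transcript clusters, 2960 passed in the first comparison, 1182 with the AdCre-induced oligo-astrocytoma alone and 1772 without PNET replicate 3. In the second, 7632 passed, 3950 without AdCre sphere 1 and 4479 without AdCre sphere 2, and in the third 8590 and, without AdCre sphere 1, 5233. After quantile normalization the second held 2604 higher and 2870 lower in place of 2341 and 5291, and the third 3267 and 3433 in place of 2564 and 6026. The 4 transcript clusters between spheres fell to 0 with any sample left out, and the 70 between oligo-astrocytomas to 0 when the compared groups were fitted alone, and to between 28 and 122 with 1 sample left out. The cause of these changes was not tested. A second transcript cluster for a member was not run, as no measured member has one.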
